A study of Mus musculus with 10 samples.

Results

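The MHC class II genes and their activator Ciita were read as 8 named genes in RNA-seq of adult mouse left atria: H2-Aa, H2-Ab1, H2-Eb1, Cd74, H2-DMa, H2-DMb1, H2-DMb2 and Ciita. They were chosen by name, with earlier results of these data known. They were found among the 37583 genes counted, and all 8 were among the 15364 genes with enough counts to be tested. The series holds 10 poly(A)-selected libraries in 4 groups: ibrutinib-treated mice (IBR, n = 3), vehicle-treated mice (CTL, n = 3), mice labelled with a knockout of Csk in the heart (KO, n = 2) and untreated wild-type mice (WT, n = 2). Ibrutinib is a drug against B cell cancers that blocks the kinase Btk, and Csk is a kinase that holds the Src family kinases in check. The labels give no dose, duration, age in weeks, strain, sex or promoter that drives the deletion, and they do not say whether animals were pooled. Libraries are called by group and number, as in KO26 and KO337 or WT35 and WT338. Nothing in the labels says whether libraries of a group came from separate animals, so the p-values measure the spread between these libraries.

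Class II molecules present peptides to CD4+ T cells. An alpha and a beta chain, H2-Aa with H2-Ab1 for the I-A molecule and H2-Eb1 as the beta chain of I-E, are assembled with the invariant chain Cd74, which blocks the groove until it is degraded in the endosome. The H2-DM dimer, built from H2-DMa and a beta chain encoded by H2-DMb1 or H2-DMb2, then exchanges the last invariant chain fragment for a peptide. Ciita is the coactivator that sets transcription of these genes. It binds no DNA itself and is brought to the X and Y boxes of their promoters by the RFX complex, CREB and NF-Y. Dendritic cells, B cells and a share of macrophages make class II constantly, and interferon gamma induces Ciita in many other cells. In the heart the class II genes are read mainly as genes of resident macrophages and dendritic cells.

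RefSeq promoter windows (GRCm38.p6, 250 bases before to 50 after the start) matched 5 of the 8 genes; H2-Ab1, Cd74 and Ciita had none in the table. Stretches of 150 bases from 4 of these windows are shown because they hold the Y box to which NF-Y binds or its core, and in 3 of them a common stretch lies before it. Each is written 5′ to 3′ on the gene's strand, with the Y box letters and the common stretch in capitals.
H2-Aa, chr17:34287824-34287973, minus strand: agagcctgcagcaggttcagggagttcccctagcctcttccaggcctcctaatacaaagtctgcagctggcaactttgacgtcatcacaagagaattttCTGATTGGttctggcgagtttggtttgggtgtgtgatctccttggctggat
H2-Eb1, chr17:34305717-34305866, plus strand: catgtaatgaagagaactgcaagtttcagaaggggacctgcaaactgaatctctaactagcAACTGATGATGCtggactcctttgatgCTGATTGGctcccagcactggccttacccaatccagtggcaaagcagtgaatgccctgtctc
H2-DMb1, chr17:34153041-34153190, plus strand: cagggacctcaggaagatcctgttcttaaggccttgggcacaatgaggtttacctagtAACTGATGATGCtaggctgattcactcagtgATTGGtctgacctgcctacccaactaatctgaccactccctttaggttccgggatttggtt
H2-DMb2, chr17:34145099-34145248, plus strand: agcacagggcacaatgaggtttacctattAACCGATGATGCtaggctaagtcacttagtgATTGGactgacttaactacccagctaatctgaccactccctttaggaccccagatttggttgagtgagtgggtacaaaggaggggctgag

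The full Y box CTGATTGG, searched on both strands, starts 51 bases before the start of H2-Aa and 62 bases before that of H2-Eb1, and 4.1% of the 32851 windows hold it. Its core ATTGG, which lies inside the full box and is found in 37.4% of windows, starts 61 bases before H2-DMb1 and 90 bases before H2-DMb2. Of the 2 windows of H2-DMa, one holds the core, 198 bases before the start. The X box was first searched as AG, any 2 bases and ACAGATG, which 0.423% of windows and none of the 5 genes hold. The common stretch, AAC followed by any 2 bases and ATGATGC on either strand, was chosen after these windows had been read, so its presence in them is no finding. It stands 89, 92 and 121 bases before the starts of H2-Eb1, H2-DMb1 and H2-DMb2, with 18, 19 and 19 bases between it and the Y box core. In all, 13 of the 32851 windows (0.0396%) hold it. One is that of H2-Ob, the beta chain of the H2-DO dimer that restrains H2-DM, with a gap of 16 bases. Others belong to genes outside class II, such as Olfr582, Klhl34 and Slc39a10. The letters describe the windows and were not tested as binding sites in these atria.

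**Figure D1:**
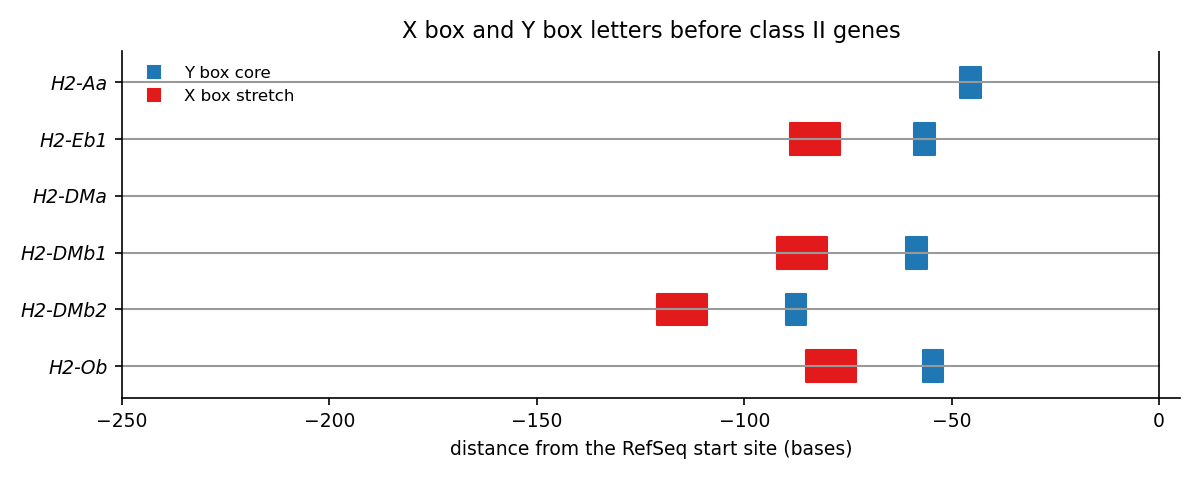
Map of the first RefSeq promoter window of each of 5 class II genes and H2-Ob, with distance from the start site in bases on the x axis. Blue marks are the Y box core on the gene's strand. Red marks, labelled X box stretch, are the common stretch chosen after the windows had been read. In H2-Eb1, H2-DMb1, H2-DMb2 and H2-Ob the stretch lies before a Y box core, with 16 to 19 bases between them.

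Total counts on genes ran from 14907331 to 19960947 per library, so that 3 counts, taken here as the limit that a count of 0 allows, correspond to 0.136 to 0.216 CPM, the reads of a gene scaled to a common library size. CPM values are scaled by trimmed means of M values (TMM), whose factors were 1.157 in KO26 and 1.228 in KO337 and 0.8696 to 1.026 elsewhere. Csk, the gene named in the genotype label, had 24.7 and 35.5 CPM in KO26 and KO337, against 18.3 and 17.8 CPM in WT35 and WT338 (log2 difference 0.74, SE 0.18, adjusted p = 0.0608). The counts therefore do not bear out the label, and since the deleted exons are not given they cannot test it; each direction below rests on the labels as they stand. Myh6, the atrial heavy chain of myosin, had 12900 CPM in KO337 and 28600 to 44400 CPM in the other libraries, and Myl7, the atrial light chain, 2040 CPM in KO337 and 3230 to 8990 CPM in the others. The KO pair also differed more from each other than the libraries of the other groups did (chi-square per degree of freedom 140, against 14.7 to 39.6).

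The class II genes stood far higher in the atria labelled KO than in WT atria. The alpha chain gene H2-Aa had 302 and 260 CPM in KO26 and KO337, against 25.3 and 18.3 CPM in WT35 and WT338. Its partner H2-Ab1 had 178 and 160 CPM in the KO libraries, against 12.1 and 9.3 CPM in the WT libraries. For both chains of I-A the 2 KO libraries lay close together and about an order of magnitude above both WT libraries. H2-Eb1 had 256 and 228 CPM in KO26 and KO337, against 7.72 and 6.48 CPM in WT35 and WT338. Cd74, the most abundant of the 8 per length of exon as well as in counts, had 516 and 457 CPM in KO26 and KO337, against 37.7 and 29.9 CPM in WT35 and WT338. In each of these 4 genes KO26 was the higher KO library and WT35 the higher WT library.

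The genes of H2-DM followed at lower levels. H2-DMa had 24.5 and 11.9 CPM in KO26 and KO337, against 2.67 and 1.82 CPM in WT35 and WT338. H2-DMb1 had 18.3 and 13.0 CPM in the KO libraries, against 1.43 and 0.943 CPM in the WT libraries. The groups did not overlap, but for H2-DMa KO26 lay well above KO337. H2-DMb2 was read with 56 and 35 counts in KO26 and KO337 (3.25 and 1.58 CPM), against 10 and 3 counts in WT35 and WT338 (0.495 and 0.189 CPM). H2-DMb1 and H2-DMb2 are near copies: 27.2% of the 50-base stretches of H2-DMb1 and 29.5% of those of H2-DMb2 also occur in another gene, so the split of reads between them is uncertain, while the other 6 genes share no such stretch. Ciita had 17.6 CPM in KO26 but 4.48 CPM in KO337, against 3.12 and 2.51 CPM in WT35 and WT338. For Ciita KO337 thus lay above both WT libraries but nearer to them than to KO26. For H2-Aa, H2-Ab1, H2-Eb1 and Cd74 it lay far above the WT libraries. This contrast rests on 1 library, and the part of Ciita in the class II levels was not tested.

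**Figure D2:**
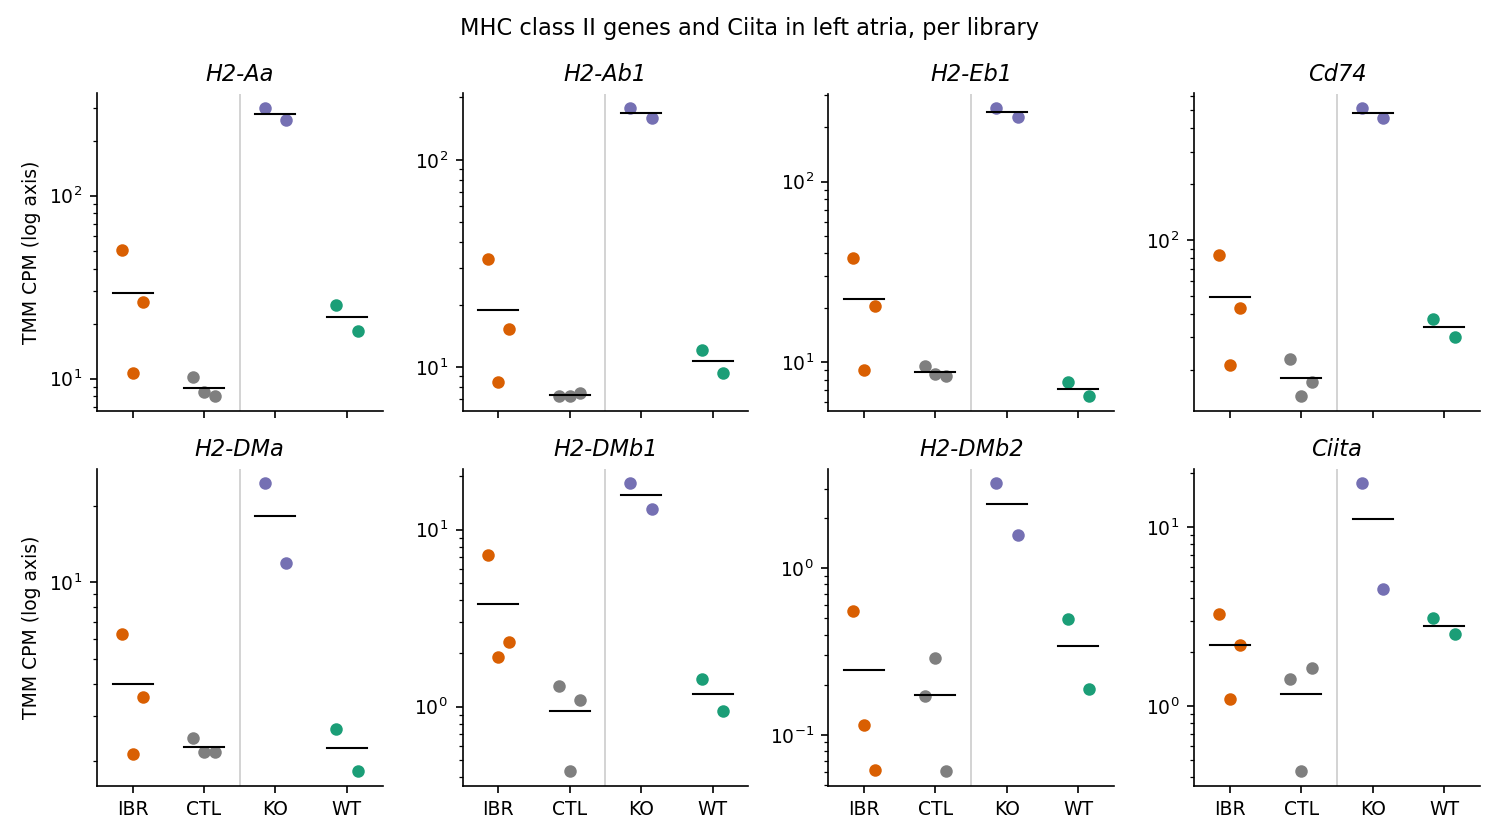
Level of each of the 8 genes in each library, in TMM-scaled CPM on a log axis, with IBR left of CTL and KO left of WT; points are libraries and bars are group means. Both KO libraries lie above all other libraries for every gene, and IBR1 comes after them in all 8. The share of all tested genes with this order was not counted.

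In a quasi-likelihood test across all 15364 genes with edgeR, 6 of the 8 genes were called higher in KO than in WT atria at an adjusted p under 0.05, where 1.31% of all tested genes were called higher, and none was called lower, where 0.898% were. H2-Eb1 had the largest difference (log2 5.09, SE 0.55, or 34.0-fold, adjusted p = 0.00994). H2-Ab1 (log2 3.98, SE 0.52, adjusted p = 0.0194), Cd74 (3.85, SE 0.54, adjusted p = 0.0243), H2-DMb1 (3.70, SE 0.67, adjusted p = 0.0343) and H2-Aa (3.68, SE 0.57, adjusted p = 0.0288) differed from each other by less than their standard errors. H2-DMa was 8.01-fold higher (log2 3.00, SE 0.50, adjusted p = 0.0296). H2-DMb2 (log2 2.75, SE 0.82, adjusted p = 0.0885) and Ciita (log2 1.96, SE 0.70, adjusted p = 0.124) were not called with edgeR; with DESeq2 all 8 were, these 2 just under the threshold (adjusted p = 0.0459 and 0.0447). Both KO libraries lay above both WT libraries for all 8 genes, which 26.3% of all tested genes also did, and the median log2 difference of the 8 was 3.69, against 0.01 over all tested genes.

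All 8 differences were positive under every alternative. In the fit reported above 50.7% of all tested genes had a positive difference, and the share positive under every alternative was not counted. Leaving out a KO or WT library leaves 1 in that group, which is then assumed to vary like the libraries of the other groups. Without WT35 or without WT338 none of the 8 was called (lowest adjusted p 0.0952 and 0.079), with log2 differences about as large (5.22 and 4.96 for H2-Eb1, 3.93 and 3.46 for H2-Aa); without KO337 only H2-Eb1 and H2-DMa were, without IBR3 only H2-Eb1 and H2-Ab1, and none with the WT and KO libraries fitted alone (lowest adjusted p 0.0549). The log2 difference of H2-DMa was 2.37 without KO26, and that of Ciita 0.65 without KO26 and 2.62 without KO337.

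Between ibrutinib-treated and vehicle-treated atria no class II gene was called different, and the levels were highest in 1 treated library. H2-Aa had 50.7, 10.8 and 26.2 CPM in IBR1, IBR2 and IBR3, against 10.2, 8.43 and 8.03 CPM in CTL1, CTL2 and CTL3. H2-Ab1 had 33.1, 8.44 and 15.2 CPM in the IBR libraries, against 7.23, 7.28 and 7.49 CPM in the CTL libraries. IBR1 lay well above the rest, IBR3 came second and IBR2 lay just above the CTL libraries. H2-Eb1 had 37.6, 9.07 and 20.5 CPM in IBR1, IBR2 and IBR3, against 9.5, 8.65 and 8.33 CPM in CTL1, CTL2 and CTL3. Cd74 had 83.0, 21.2 and 43.0 CPM in the IBR libraries, against 22.9, 14.4 and 17.1 CPM in the CTL libraries. For these 2 genes the groups overlapped, since CTL1 exceeded IBR2.

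Of the H2-DM genes, H2-DMa had 6.29, 2.13 and 3.55 CPM in IBR1, IBR2 and IBR3, against 2.45, 2.16 and 2.17 CPM in CTL1, CTL2 and CTL3. H2-DMb1 had 7.22, 1.9 and 2.32 CPM in the IBR libraries, against 1.31, 0.432 and 1.09 CPM in the CTL libraries. The groups overlapped for H2-DMa and not for H2-DMb1. H2-DMb2 was near the limit of counting, with 9, 2 and 1 counts in IBR1, IBR2 and IBR3 and 3, 4 and 1 counts in CTL1, CTL2 and CTL3. Ciita had 3.27, 1.09 and 2.2 CPM in the IBR libraries, against 1.42, 0.432 and 1.63 CPM in the CTL libraries, and the groups overlapped.

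None of the 8 genes was called between IBR and CTL (adjusted p 0.823 to 0.925), and 0% of all tested genes were called with edgeR. At an unadjusted p under 0.05, 5 of the 8 were higher, where 3.31% of all tested genes were and 5.52% passed in either direction; DESeq2 called 2 genes and none of the 8, and limma-voom called 0 genes. All 8 log2 differences were positive, as were 44.7% of those of all tested genes. They were 1.98 for H2-DMb1 (SE 0.56), 1.71 for H2-Aa (SE 0.45), 1.43 for Cd74 (SE 0.41), 1.37 for H2-Ab1 (SE 0.40) and 1.34 for H2-Eb1 (SE 0.40). Smaller ones were 0.88 for Ciita (SE 0.63), 0.81 for H2-DMa (SE 0.41) and 0.50 for H2-DMb2 (SE 0.91). Every IBR library lay above every CTL library for H2-Aa, H2-Ab1 and H2-DMb1, which 5.91% of all tested genes also did, and the median of the 8 was 1.35, against -0.03 over all tested genes. IBR1 was the highest of the 6 libraries for all 8 genes, and the share of all tested genes was not counted. IBR1 was also highest for 7 of 8 leukocyte and 11 of 13 macrophage markers described below. Without it the differences were 1.13 for H2-DMb1, 1.05 for H2-Aa, 0.82 for Cd74, 0.74 for H2-Eb1, 0.69 for H2-Ab1, 0.48 for Ciita and 0.32 for H2-DMa, and H2-DMb2 stood at -0.87.

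**Figure D3:**
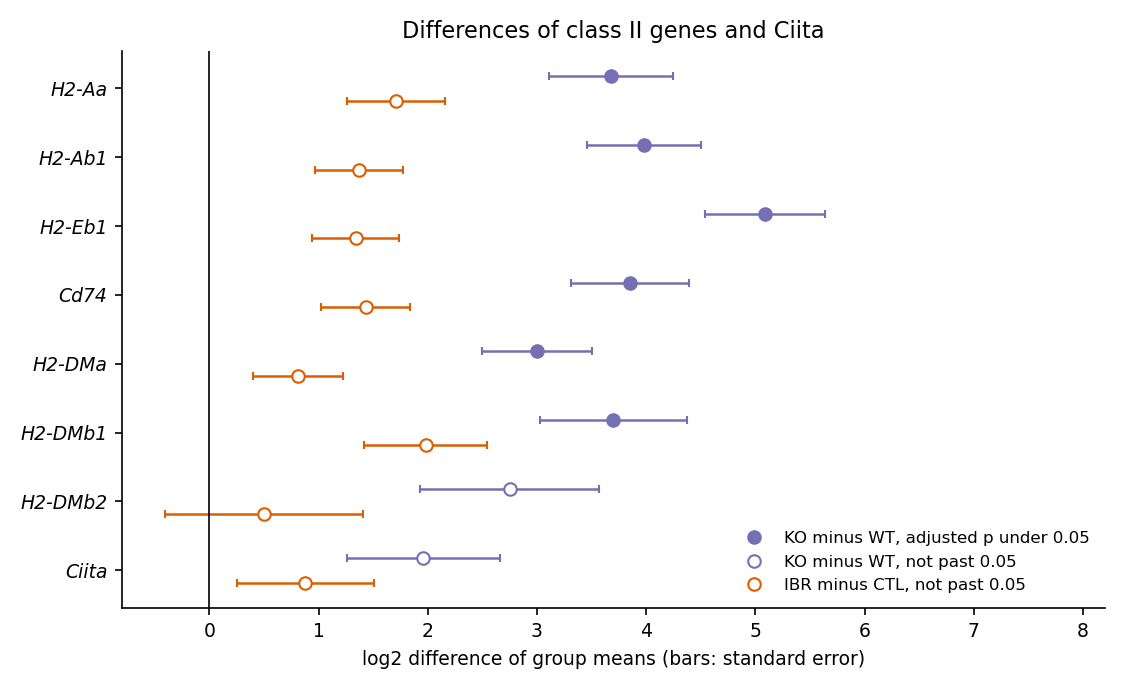
Log2 difference of group means with its standard error for each of the 8 genes, KO minus WT beside IBR minus CTL; filled points have an adjusted p under 0.05. The KO minus WT differences run from 1.96 for Ciita to 5.09 for H2-Eb1, and the IBR minus CTL differences from 0.50 for H2-DMb2 to 1.98 for H2-DMb1.

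Whether the class II genes responded more in the genotype comparison than in the drug comparison was tested as the difference of both effects. It was positive for all 8 genes (median log2 2.22) and for 52.7% of all tested genes, and none was called with edgeR; 4 of the 15364 genes (0.026%) were, all of them negative. At an unadjusted p under 0.05, 5 of the 8 were positive, where 4.97% of all tested genes were and 9.79% passed in either direction. H2-Eb1 came nearest (log2 3.75, SE 0.64, adjusted p = 0.187), and was called without IBR1 (adjusted p = 0.0316), without IBR2 (adjusted p = 0.0365) or without KO26 (adjusted p = 0.0334). H2-Ab1 was also called without IBR1. DESeq2 called H2-Eb1 (adjusted p = 1.44e-06), H2-Ab1 (adjusted p = 0.00587) and Cd74 (adjusted p = 0.0169). For Ciita the difference of effects was 1.08 (SE 0.93) and turned to -0.23 without KO26.

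The 4 groups, 2 of which belong to each experiment, ranked in 3 ways. KO was highest for all 8, apart from the group after it. The share of all tested genes with KO above every other group was not counted, and 26.3% had both KO libraries above both WT libraries. Groups of different experiments were not tested directly against each other. For H2-Aa, H2-Ab1, Cd74 and H2-DMb1 the order of group means was KO, IBR, WT and CTL; IBR and WT overlapped except for H2-DMb1, and WT and CTL overlapped for H2-DMb1 alone. For H2-Eb1 and H2-DMa the order was KO, IBR, CTL and WT, with IBR and CTL overlapping and with CTL apart from WT only for H2-Eb1. For H2-DMb2 and Ciita it was KO, WT, IBR and CTL, and no neighbours other than KO and WT were apart. Across genes, on a scale of CPM per kilobase of exon, the KO means were 343 for Cd74, 249 for H2-Aa, 145 for H2-Eb1, 140 for H2-Ab1, 11.2 for H2-DMb1, 6.81 for H2-DMa, 1.38 for H2-DMb2 and 1.35 for Ciita. In CTL atria Cd74 again led with 12.8, before 7.89 for H2-Aa, 6.05 for H2-Ab1 and 5.29 for H2-Eb1, with the H2-DM genes and Ciita all at 0.847 or less.

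Proportions between the genes were steadiest for Cd74 and H2-Aa. Cd74 over H2-Aa in CPM was 1.71 to 1.76 in KO, against 1.49 to 1.63 in WT atria, and 1.64 to 1.96 in IBR, against 1.71 to 2.23 in CTL atria. H2-Ab1 over H2-Aa was 0.589 to 0.618 in KO, against 0.479 to 0.509 in WT atria, and 0.582 to 0.782 in IBR, against 0.706 to 0.932 in CTL atria. The H2-DM alpha chain varied more, and H2-DMa over H2-Aa was 0.0457 to 0.081 in KO, against 0.0997 to 0.105 in WT atria, and 0.124 to 0.197 in IBR, against 0.239 to 0.271 in CTL atria. The ratio did not overlap between any 2 of the groups, and it was lowest in KO, where H2-Aa was highest. H2-Aa over Ciita was 17.1 in KO26 and 57.9 in KO337, against 7.28 to 8.13 in WT atria, and ran from 9.89 to 15.5 in IBR and from 4.93 to 19.5 in CTL atria.

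H2-Eb1 stood apart in the WT libraries. Relative to H2-Aa it was read at 0.305 and 0.354 in WT35 and WT338 and at 0.741 to 1.04 in the other 8 libraries, KO libraries included. H2-Ea-ps, the I-E alpha chain locus that is a pseudogene in some mouse strains, had 0 and 2 counts in KO26 and KO337, against 13 and 7 counts in WT35 and WT338, and 0 in all IBR and CTL libraries. The libraries with a low H2-Eb1 share were thus those with most H2-Ea-ps counts. The larger KO minus WT difference of H2-Eb1 (34.0-fold, against 12.9-fold for H2-Aa) goes with this ratio. Class II haplotypes differ between mouse strains, the labels name no strain, and the part of strain in these values was not tested.

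**Figure D4:**
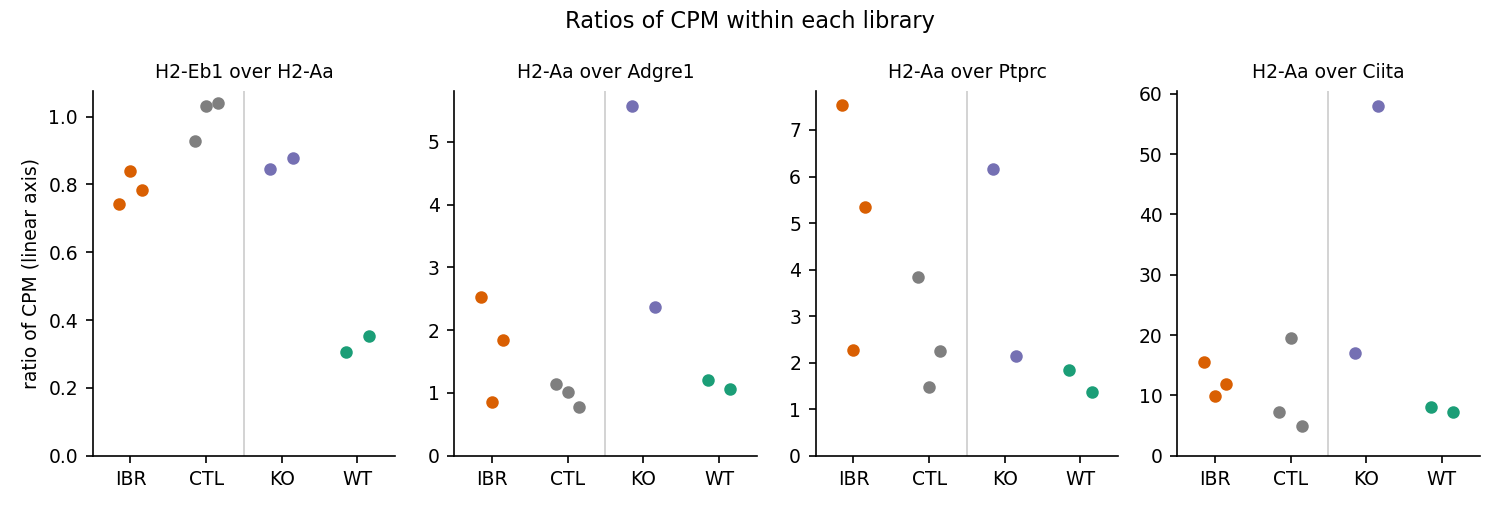
Ratios of CPM within each library on linear axes that start at 0, for H2-Eb1 over H2-Aa and for H2-Aa over Adgre1, Ptprc and Ciita, with IBR left of CTL and KO left of WT; points are libraries. H2-Eb1 over H2-Aa is at least 0.741 in the 8 libraries other than WT and 0.305 and 0.354 in the WT libraries, and H2-Aa over Ciita is 57.9 in KO337.

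The 8 genes also ranked the highest libraries alike. The order of the first 3 libraries was KO26, KO337 and IBR1 for all 8, and WT35 was above WT338 for all 8. Lower places varied, and the lowest library was CTL2 for 3 genes, CTL3 for 2, WT338 for 2 and CTL1 for 1. The share of all tested genes with these orders was not counted. As a description of likeness, the log2 CPM profile of each gene over the 10 libraries, centred on its own mean, was set against the mean profile of the other 7. The root mean square distance was 0.30 for H2-Ab1 and 0.35 for Cd74, each the nearest of 15357 genes to the rest of the set. It was 0.45 for H2-Aa, 0.49 for H2-DMa, 0.51 for H2-DMb1, 0.64 for H2-Eb1, 0.72 for H2-DMb2 and 0.83 for Ciita, which ranked 133, against a median of 1.5 to 1.6 over all genes. The closest pair was H2-Aa with Cd74 (0.17) and the widest H2-Eb1 with Ciita (1.24). Over the 6 IBR and CTL libraries alone H2-Ab1, Cd74 and H2-Eb1 lay 0.17, 0.17 and 0.19 from the rest and ranked 2 each, while Ciita (0.53, rank 488), H2-DMb1 (0.56, rank 1256) and H2-DMb2 (0.80, rank 4926) did not stand near it. These distances share depth and scaling within a library and carry no test.

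Outside the set, the 10 genes nearest to the mean profile of H2-Aa, H2-Ab1, H2-Eb1 and Cd74 were March1, Edn1, Dock10, Rac2, Myo1g, Cd48, Lair1, Ikzf1, Cybb and Itga4, at distances of 0.75 to 0.82 among 11623 genes ranked. March1, the nearest, encodes a ubiquitin ligase that removes class II molecules from the cell surface, Edn1 the vasoconstrictor peptide endothelin, Rac2 a GTPase of blood cells, Cybb the catalytic chain of the phagocyte NADPH oxidase and Itga4 an integrin chain of leukocytes. All 10 were called higher in KO than in WT atria, with log2 differences of 2.10 for Ikzf1 to 2.75 for Edn1; the ranking used the same libraries, so these calls are a description. Of the 10, only Cybb was still called without KO337, and 0 without WT35, without WT338, without IBR3 or with the KO and WT libraries fitted alone.

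Among 17 tested genes of the class II pathway outside the set, 3 were called higher in KO than in WT and 0 lower, and all 17 differences were positive (median log2 1.17). Of all tested genes 1.31% were called higher, 0.898% lower and 50.7% had a positive difference. These shares also stand beside the KO minus WT counts of the lists below. Ctss, the protease that degrades the invariant chain, had 52.9 and 630 CPM in KO26 and KO337, against 15.1 and 15.8 CPM in WT35 and WT338 (log2 4.46, SE 0.91, adjusted p = 0.0455). Unlike the class II genes, it was far higher in KO337 than in KO26. H2-Ob had 5.98 and 3.98 CPM in KO26 and KO337, against 0.594 and 1.01 CPM in WT35 and WT338 (log2 2.64, SE 0.59, adjusted p = 0.0483), and March1 was higher by 2.24 (SE 0.42, adjusted p = 0.0368). H2-Oa, the alpha chain of H2-DO, had 1.16 and 0.77 CPM in the KO libraries, against 0.0495 and 0.629 CPM in the WT libraries, and was not called (adjusted p = 0.294). H2-Eb2 had 40 and 20 counts in KO26 and KO337, against 0 and 2 counts in WT35 and WT338 (adjusted p = 0.0637). Ifi30, a thiol reductase of antigen processing (log2 1.44, adjusted p = 0.102), and Lgmn, an endosomal protease (0.58, adjusted p = 0.278), were not called. In 3 of the 18 genes found KO26 exceeded KO337, against 8 of 8 for the class II genes and Ciita.

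Of 24 tested regulators of class II transcription, 1 was called higher in KO and 0 lower, where 1.31% and 0.898% of all tested genes were. The median of the 24 was 0.17. The regulator called was Spi1, the PU.1 factor of myeloid cells, with 10.9 and 22.8 CPM in KO26 and KO337, against 3.31 and 3.96 CPM in WT35 and WT338 (log2 2.22, SE 0.42, adjusted p = 0.0368). The RFX genes had log2 differences of 0.39 for Rfx5, 0.09 for Rfxap and -0.53 for Rfxank, none of them called; that of Rfx5 was -0.04 without KO337. Irf8, an interferon regulatory factor of myeloid cells, had 35.2 and 32.5 CPM in the KO libraries, against 21.4 and 22.8 CPM in the WT libraries (log2 0.61, adjusted p = 0.0607). Prdm1, a repressor of Ciita in plasma cells, was likewise not called (log2 2.37, adjusted p = 0.0534). Nlrc5, the Ciita relative that activates class I genes, had 30.0 and 10.3 CPM in KO26 and KO337, against 5.29 and 5.91 CPM in WT35 and WT338 (log2 1.84, adjusted p = 0.0942). Irf1 differed by -0.05, or 0.17 when libraries were scaled by total counts, and Ifng had counts in KO26 alone (0.174 CPM, the value of 3 counts).

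The genes that neighbour the class II genes gave no call. Of 17 tested, 0 were called in either direction with edgeR, 2 with DESeq2 and 0 with limma-voom, and their median log2 difference was 0.08. Tap1, the peptide transporter of the class I pathway, came nearest with 68.1 and 24.0 CPM in KO26 and KO337, against 12.8 and 14.8 CPM in WT35 and WT338 (log2 1.74, SE 0.50, adjusted p = 0.0885), followed by the immunoproteasome gene Psmb8 (log2 1.38, adjusted p = 0.0886). At an unadjusted p under 0.05, 3 of the 17 passed (Tap1, Psmb8 and Tap2), where 25.7% of all tested genes did.

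Some markers of the cells that make class II were also called higher in KO atria. The leukocyte and macrophage markers had another balance between the KO libraries. In bulk tissue, more cells of a type and more RNA per cell cannot be told apart. The summed CPM of the 8 genes was 1320 and 1140 in KO26 and KO337, against 90.6 and 69.4 in WT35 and WT338. That of 8 leukocyte markers was 190 and 554 in KO26 and KO337, against 62.3 and 76.8 in the WT libraries, and 13 macrophage markers summed to 661 and 1570 in KO26 and KO337, against 480 and 596 in the WT libraries. The class II sum was thus slightly higher in KO26, and both marker sums were more than doubled in KO337 relative to KO26. KO26 exceeded KO337 in 0 of 8 leukocyte, 4 of 13 macrophage, 5 of 11 dendritic cell and 0 of 7 B cell markers. It did so in 8 of 10 T and NK cell markers, 15 of 25 class II regulators and 5 of 5 cardiomyocyte markers. A higher level in KO26 was thus not particular to the class II genes.

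Of the leukocyte markers 4 of 8 were called higher, where 1.31% of all tested genes were: Ptprc, which encodes CD45 (log2 2.64, adjusted p = 0.0288), Cd52 (3.89, adjusted p = 0.0282), Rac2 and Coro1a. Of the macrophage markers 2 of 13 were, Adgre1, which encodes F4/80, with 54.2 and 110 CPM in KO26 and KO337, against 20.9 and 17.1 CPM in WT35 and WT338 (log2 2.11, SE 0.32, adjusted p = 0.0282), and Fcgr1 (2.40, adjusted p = 0.0483). Cd68 had 16.4 and 172 CPM in KO26 and KO337, against 16.3 and 21.4 CPM in the WT libraries, and was not called. Of the 13 macrophage markers 9 had positive differences (median log2 1.12), where 50.7% of all tested genes had. Among them C1qb (log2 2.09), C1qa (1.97), C1qc (1.85), Mertk (1.12), Csf1r (0.99) and Mrc1 (0.12) were not called. The markers with negative differences were Folr2 (log2 -0.75, adjusted p = 0.0732), Cd163 (-0.68, adjusted p = 0.208), Lyve1 (-0.71, adjusted p = 0.236) and Timd4 (-0.84, adjusted p = 0.267), none of them called. In each, both KO libraries lay below both WT libraries. The share of all tested genes that did so was not counted, and 26.3% had both KO libraries above. H2-Aa over Adgre1 was 5.58 and 2.37 in KO26 and KO337, against 1.21 and 1.07 in WT35 and WT338. H2-Aa over Ptprc was 6.16 and 2.15 in KO26 and KO337, against 1.84 and 1.36 in WT35 and WT338. H2-Aa over Cd68 was 18.5 and 1.51 in KO26 and KO337, against 1.55 and 0.853 in WT35 and WT338, so that KO337 lay between the WT libraries. The ratio to each marker was higher in KO26 than in KO337, and only the ratios to Adgre1 and Ptprc kept the groups apart.

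Of 4 tested monocyte markers 3 were called higher in KO, where 1.31% of all tested genes were. Ccr2 had 22.1 and 11.8 CPM in KO26 and KO337, against 1.58 and 0.629 CPM in WT35 and WT338 (log2 3.90, adjusted p = 0.0302). The others called were Fcgr4 (4.68, adjusted p = 0.0312) and Plac8 (3.15, adjusted p = 0.0368). The sum of the 5 monocyte markers found was 33.1 and 30.3 CPM in KO26 and KO337, against 2.82 and 2.14 CPM in the WT libraries. It was nearly even between the KO libraries, but KO26 exceeded KO337 in only 2 of the 5 markers. Fcgr4 (4.24 and 8.6 CPM in KO26 and KO337) and Plac8 (5.34 and 8.24 CPM) were higher in KO337. Of 11 dendritic cell markers 1 was called, the migration receptor Ccr7 (log2 3.18, adjusted p = 0.0489). Itgax had 3.13 and 68.6 CPM in KO26 and KO337, against 0.643 and 0.189 CPM in WT35 and WT338 (adjusted p = 0.0514), and Xcr1 had 4.24 and 1.18 CPM, against 0.643 and 0.692 CPM (adjusted p = 0.112). Flt3, at 0 in IBR3 and CTL3, had 2.03 and 3.62 CPM in the KO libraries, against 0.346 and 0.189 CPM in WT35 and WT338 (adjusted p = 0.0592). Flt3, Batf3 (log2 3.54, adjusted p = 0.0514), Itgae (3.46, 0.0745), Zbtb46 (0.39, 0.346) and Cd209a (1.38, 0.379) were not called. Of the 11, 10 had positive differences (median log2 2.0), all but Siglech. At an unadjusted p under 0.05, 8 of 11 dendritic cell, 9 of 13 macrophage and 8 of 8 leukocyte markers passed, where 25.7% of all tested genes did. Of 8 T and NK cell markers Cd3e (log2 2.69, adjusted p = 0.0427) and Cd8a (4.14, adjusted p = 0.0483) were called.

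Most B cell markers were low, and 0 of 5 tested were called in either direction with edgeR, 1 with DESeq2 and 0 with limma-voom; 1 had an unadjusted p under 0.05. Their summed level was 3.95 and 12.9 CPM in KO26 and KO337, against 1.78 and 3.21 CPM in WT35 and WT338, and 1.38 to 2.9 CPM in IBR and 1.14 to 3.96 CPM in CTL atria. Cd22 had 1.51 and 7.61 CPM in KO26 and KO337, against 0.346 and 0.189 CPM in WT35 and WT338 (log2 4.03, SE 1.01, adjusted p = 0.0629), and made up most of the sum in KO337. Ms4a1 and Cd79a were each at 1.07 CPM or less in every library, and Pax5 was at 0 in KO26, IBR3 and CTL1. None of 6 fibroblast, 5 endothelial or 5 cardiomyocyte markers was called with edgeR (4, 0 and 3 with DESeq2, 1, 0 and 0 with limma-voom; 4, 0 and 4 at an unadjusted p under 0.05, where 25.7% of all tested genes passed). All 5 cardiomyocyte markers had negative differences, from -0.94 for Ryr2 to -0.76 for Actn2; Col1a1 stood at 134 and 1670 CPM in KO26 and KO337, against 107 and 98.7 CPM in WT35 and WT338, and Pecam1 differed by 0.16 on the log2 scale. Of the 16 distinct genes called in these lists, 3 were still called without KO337 (Adgre1, Ccr2 and Ctss), 1 without IBR3 (Cd52), and 0 without WT35, without WT338 or with the KO and WT libraries fitted alone, with all 16 differences positive throughout. Their part in the class II difference was not tested.

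Between IBR and CTL 0 genes of any list were called with edgeR. All 13 macrophage markers had a positive difference (median log2 0.57), as had 44.7% of all tested genes. IBR1 was the highest of the 6 libraries for 11 of the 13 markers. The macrophage sum was 487, 368 and 394 CPM in IBR1, IBR2 and IBR3, against 254 and 245 CPM in CTL1 and CTL2, with CTL3 between these and IBR2. The leukocyte sum was 67.3, 36.8 and 49.7 CPM in the IBR libraries, against 29.5, 40.8 and 38.7 CPM in the CTL libraries. The class II sum was 222, 54.7 and 113 CPM in IBR1, IBR2 and IBR3, against 55.2, 42.1 and 45.9 CPM in CTL1, CTL2 and CTL3. All 3 sums were highest in IBR1, and H2-Aa over Adgre1 was 0.851 to 2.53 in IBR, against 0.773 to 1.15 in CTL atria. The part of these cell markers in the drug comparison was not tested.

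**Figure D5:**
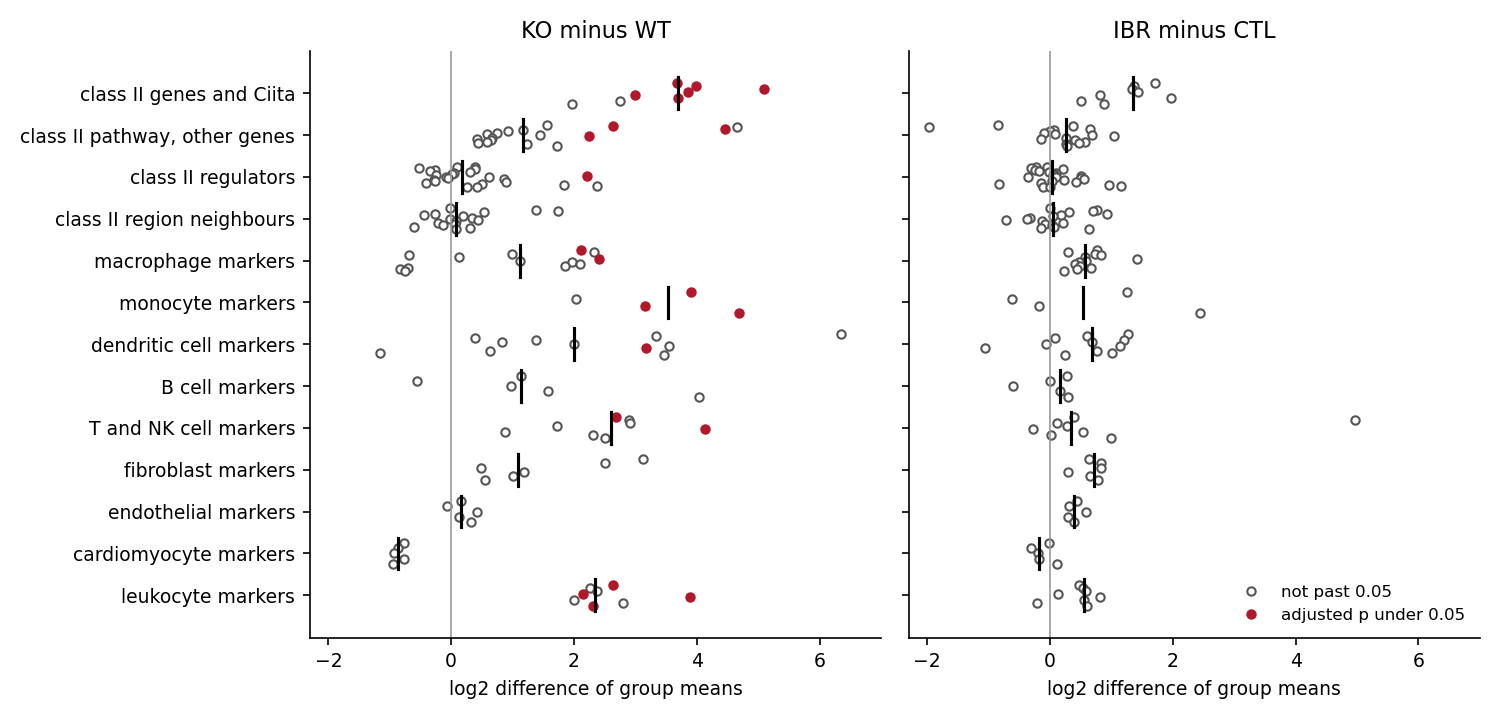
Log2 differences of the tested genes of each list, KO minus WT on the left and IBR minus CTL on the right; each point is a gene, filled where its adjusted p is under 0.05, and the bar is the list's median. The class II genes and Ciita have the highest KO minus WT median of the lists shown, 3.69, before the 4 tested monocyte markers at 3.52. All lists were chosen with earlier results of these data known, so this order is a description. No point is filled for IBR minus CTL.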

How the data were processed

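The 10 libraries of mouse left atria were made from poly(A)-selected RNA with a strand-preserving kit (per the labels' protocols). What the authors deposited are raw read counts per gene, 1 file per library, not normalized. The submitters' processing notes name build mm9 and the tools STAR, HTSeq and edgeR, without versions; which annotation was counted is not given in the sources read. Because the files are on mm9, they lend no coordinates here, and sequences are from RefSeq on GRCm38.p6, matched by symbol. Symbols were matched for 32860 of 37583 genes. Rows of unassigned reads (no feature 13.5% to 19.9%, not unique 11.8% to 27.4%, ambiguous 3.14% to 3.99%) stayed out of library sizes. The deposited file names say that counting was not stranded, so a gene and its antisense partner cannot be told apart, and reads of overlapping genes or near copies can be lost or split.

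Tests were run in R 4.3.3 on the counts, with edgeR 4.0.16 (and limma 3.58.1), with DESeq2 1.42.0 as an alternative. filterByExpr (minimum count 10, minimum total 15) kept 15364 genes. All 10 libraries entered a single robust quasi-likelihood fit with TMM scaling and a mean per group, with 6 residual degrees of freedom. Common biological variation was 0.221 over all libraries, 0.169 in IBR and CTL alone and 0.294 in KO and WT alone, so the estimate shared by all is smaller than the genotype libraries' own. P-values were adjusted over all 15364 genes by Benjamini-Hochberg; genes under 0.05 are termed called. Profiles used log2 CPM with a prior count of 2. Exon lengths were taken from GENCODE vM21. Calling of KO minus WT and of IBR minus CTL was also run on simulated counts that used the variation of the shared fit. The difference of effects, profiles, ratios and promoter searches were not simulated.

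The 8 genes and all lists were chosen with earlier results of these data known. Genes named are the 8, those called in a list (up to 6 by p, at least the 2 smallest p), fixed defining markers and the 10 nearest profiles. Replicate numbers are shared by IBR and CTL only. Alternatives covered scaling, filter, shrinkage, DESeq2, limma-voom, each experiment alone, summed H2-DMb genes, a replicate block and leaving out each library. Some genes covered by the naming rule are not reported here.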

Additional observations from a re-analysis of the deposited data

How the results depend on the processing

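All 8 genes kept a positive KO minus WT difference in every alternative run. The count called was 6 in the fit reported, 8 with DESeq2, 7 without the low count filter, 0 with each experiment alone, and 0 to 6 with libraries left out in turn. Over all genes the KO minus WT count of 339 became 1146 without the low count filter, 1858 with DESeq2, 17 with the replicate block and 0 with each experiment alone, and ranged from 14 to 3933 with libraries left out. IBR minus CTL had 0 genes called, or 2 without the filter and 2 with DESeq2, and 0 to 0 with libraries left out. For the difference of effects 3 of the 8 genes were called with DESeq2 and 0 to 2 with libraries left out. Over all genes its count of 4 became 84 without the filter, 143 with DESeq2 and 0 with upper quartile factors, total counts, the replicate block or limma-voom, and ranged from 0 to 1564 with libraries left out. Signs turned for Irf1 (0.17 with total counts, and -0.32 to 0.26 with libraries left out), Cd86 (-0.01 to 1.08, lowest without KO337), Rfx5 (-0.04 to 0.69, lowest without KO337), H2-DMb2 in IBR minus CTL (-0.87 without IBR1, up to 1.0 with others left out) and Ciita in the difference of effects (-0.23 without KO26, up to 1.72 without KO337); the cause was not tested. Scaling by total counts raised the median of all genes by 0.23 in KO minus WT and by 0.14 in the difference of effects.

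IBR and CTL libraries share the numbers 1 to 3, and deviations of same-numbered libraries correlated at 0.0159, 0.162 and 0.0321, so the numbers are not shown to pair them. With the replicate block 0 of the 8 genes were called between IBR and CTL, 5 of 8 between KO and WT (H2-DMa was lost, adjusted p = 0.0853), and 0 in the difference of effects; of the 16 list genes and the 10 nearest genes called between KO and WT, 0 were called with it. Fitting each experiment alone gives no difference of effects. Depth limits H2-DMb2, which lay at or near 3 counts in most IBR and CTL libraries.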
